A study of Mus musculus with 56 samples.

Results

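Dbp, Tef and Hlf encode the 3 transcription factors of the PAR bZIP family, and Nfil3 encodes the bZIP repressor that competes with them for the same DNA sites. Their 24-h expression profiles were examined in visceral adipose tissue (VAT) of mice whose feeding time was inverted. The 4 genes were taken by symbol from a table of 25939 Ensembl genes, in which each has 1 row, and all 4 had reads in all 56 libraries. Female C57BL/6J mice, 9 weeks old at collection, were kept on chow under a 12-h light and 12-h dark cycle. For 7 days they were on time-restricted feeding (tRF), with food only in the light phase (daytime-restricted feeding, DRF) or only in the dark phase (nighttime-restricted feeding, NRF, the reference for a nocturnal animal). VAT was collected at 7 zeitgeber times (ZT, hours after lights on) from ZT0 to ZT24, 4 h apart, with 4 mice per time point and regimen, which gives 28 libraries for each regimen. ZT0 and ZT24 are the same clock time in different mice, and no animal was followed over time. All groups carried the same genotype and had free access to food for the week before the regimens began.

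PAR bZIP factors are output regulators of the circadian clock. The clock activator CLOCK:BMAL1 drives their genes through E-box sequences, and the proteins activate genes that carry a D-box. NFIL3 (also called E4BP4) occupies the D-box as a repressor, and its own gene is controlled through ROR response elements (ROREs) by REV-ERB repressors and ROR activators. In liver the PAR bZIP factors are known for their control of detoxification enzymes and of Period genes, and the activators and NFIL3 normally peak at opposite phases of the day.

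On GRCm38, Dbp (ENSMUSG00000059824) lies at chr7:45705088-45710203 on the plus strand with 2993 exonic bases. Tef (ENSMUSG00000022389) lies at chr15:81802421-81826863 on the plus strand with 7867 exonic bases. Hlf (ENSMUSG00000003949) lies at chr11:90336536-90390895 on the minus strand with 6681 exonic bases, and Nfil3 (ENSMUSG00000056749) at chr13:52967209-52981073 on the minus strand with 2026. The reads behind each value ranged from 125 to 10418 per library for Dbp, from 1265 to 15125 for Tef, from 191 to 2377 for Hlf and from 127 to 2321 for Nfil3.

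The start-site windows of the members are shown as a description, and a link between these sequences and the profiles was not tested. RefSeq start sites on GRCm38.p6 gave 1 window each for Dbp, Hlf and Nfil3 and 2 for Tef, each from 250 bases before to 50 bases after the start. Both strands were searched for the E-box CACGTG, the D-box TTANGTAA, the RORE cores TAGGTCA and TGGGTCA and the cAMP response element TGACGTCA. Matches are in capitals below, and the sequences run 5′ to 3′ on the strand of the gene.
Tef, first start site, chr15:81802423-81802722, plus strand: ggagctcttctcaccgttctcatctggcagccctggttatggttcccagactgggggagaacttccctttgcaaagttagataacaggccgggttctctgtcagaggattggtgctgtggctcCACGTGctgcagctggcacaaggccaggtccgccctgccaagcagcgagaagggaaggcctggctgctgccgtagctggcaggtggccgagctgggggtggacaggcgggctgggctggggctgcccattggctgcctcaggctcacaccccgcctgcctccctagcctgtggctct
Tef, second start site, chr15:81811164-81811463, plus strand: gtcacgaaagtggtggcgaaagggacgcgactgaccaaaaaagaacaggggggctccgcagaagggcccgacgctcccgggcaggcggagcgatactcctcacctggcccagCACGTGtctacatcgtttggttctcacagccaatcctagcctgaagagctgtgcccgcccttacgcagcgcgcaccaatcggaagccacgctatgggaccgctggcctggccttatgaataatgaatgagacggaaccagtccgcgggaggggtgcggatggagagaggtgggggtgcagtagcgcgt
Hlf, chr11:90390868-90391167, minus strand: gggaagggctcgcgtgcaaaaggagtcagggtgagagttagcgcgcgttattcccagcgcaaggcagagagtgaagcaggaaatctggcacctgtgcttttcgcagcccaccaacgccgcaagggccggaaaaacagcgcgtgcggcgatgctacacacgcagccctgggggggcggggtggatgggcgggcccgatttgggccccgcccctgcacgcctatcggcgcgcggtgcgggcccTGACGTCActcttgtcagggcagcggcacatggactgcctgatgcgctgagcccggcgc
Nfil3, chr13:52980990-52981289, minus strand: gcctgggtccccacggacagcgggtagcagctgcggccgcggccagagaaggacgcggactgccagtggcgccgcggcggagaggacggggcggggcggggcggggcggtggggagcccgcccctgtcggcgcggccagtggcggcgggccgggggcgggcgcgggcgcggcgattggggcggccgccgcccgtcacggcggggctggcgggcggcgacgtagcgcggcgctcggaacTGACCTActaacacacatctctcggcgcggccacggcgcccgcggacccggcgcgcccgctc
Both Tef windows held an E-box, which 7.15% of the 32851 mouse windows of this length hold. The Nfil3 window held the RORE core TAGGTCA on the opposite strand, 12 to 6 bases before the start, a match found in 2.61% of windows. The Hlf window held TGACGTCA, found in 1.79% of windows. The Dbp window, chr7:45704997-45705296, held none of these letters, and neither the D-box (2.32% of windows) nor TGGGTCA (3.98%) was found in any member's window. Sequence outside these windows was not searched, so a window without a match does not show that the gene lacks the motif. These are matches of letters and not measured sites, and the motifs were chosen with the expression profiles known.

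Levels are given as CPM recovered from the deposited values, which is reads per 1000000 of the effective size of a library. That size is a scaled one and differs from the total of reads. Amplitudes and differences are given as log2(CPM + 1), a scale that understates changes of low genes. Per kilobase of exon, the mean under NRF was 25.2 CPM per kb for Dbp, 20.9 for Tef, 12.6 for Nfil3 and 3.56 for Hlf. The order of the means hides very different distributions, since the median mouse under NRF had 4.11 CPM per kb of Dbp and 12.5 of Tef. Under DRF the means per kb were 18.6 for Tef, 13.1 for Dbp, 11.7 for Nfil3 and 2.52 for Hlf. Hlf was the lowest of the 4 genes by its mean per kb under both regimens.

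Before the results, 3 libraries stood apart by epithelial or liver markers. The libraries of DRF ZT8 replicate 1 and DRF ZT0 replicate 4 were at 10.4 and 9.17 on the second principal component, in units of the median absolute deviation over libraries, and no other was above 2.1. Their summed level of 5 epithelial markers was 487.5 and 1096 CPM, against at most 67.9 CPM elsewhere, and their summed level of 6 adipocyte markers was 9297 and 13830 CPM, against a median of 21540 CPM over all libraries. The library of NRF ZT24 replicate 4 had 1546 CPM of 4 liver markers, against at most 72.9 CPM elsewhere. It also had 389.3 CPM of 5 skeletal muscle markers, whose sum varied widely over all libraries, from 39.5 to 558.0 CPM under NRF and from 42.6 to 441.9 CPM under DRF, and no library was left out for it. All 6 adipocyte markers were detected in every library. Lymphocyte markers were low throughout, at 2.85 to 17.8 CPM in sum. Results are given with all libraries, and without these where that changed a call. In bulk tissue, fewer cells of a type and less RNA per cell cannot be told apart, and this holds for every level below.

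Under NRF all 4 genes had 24-h diurnal rhythms, and under DRF only Hlf and Nfil3 did. Rhythms were tested per regimen by JTK_CYCLE and Lomb-Scargle with Benjamini-Hochberg adjustment over all genes, a test that called 25.0% of genes under NRF and 13.4% under DRF. In a limma fit across all genes, the rhythm itself differed between the regimens for all 4 genes (adjusted p of 2.71e-16 for Dbp, 1.77e-16 for Tef, 1.24e-10 for Hlf and 3.53e-15 for Nfil3), a difference called for 36.0% of all genes. By the size of the fitted amplitude under NRF, Dbp ranked 2 of 25937 genes, Nfil3 17, Tef 21 and Hlf 43.

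**Figure D1:**
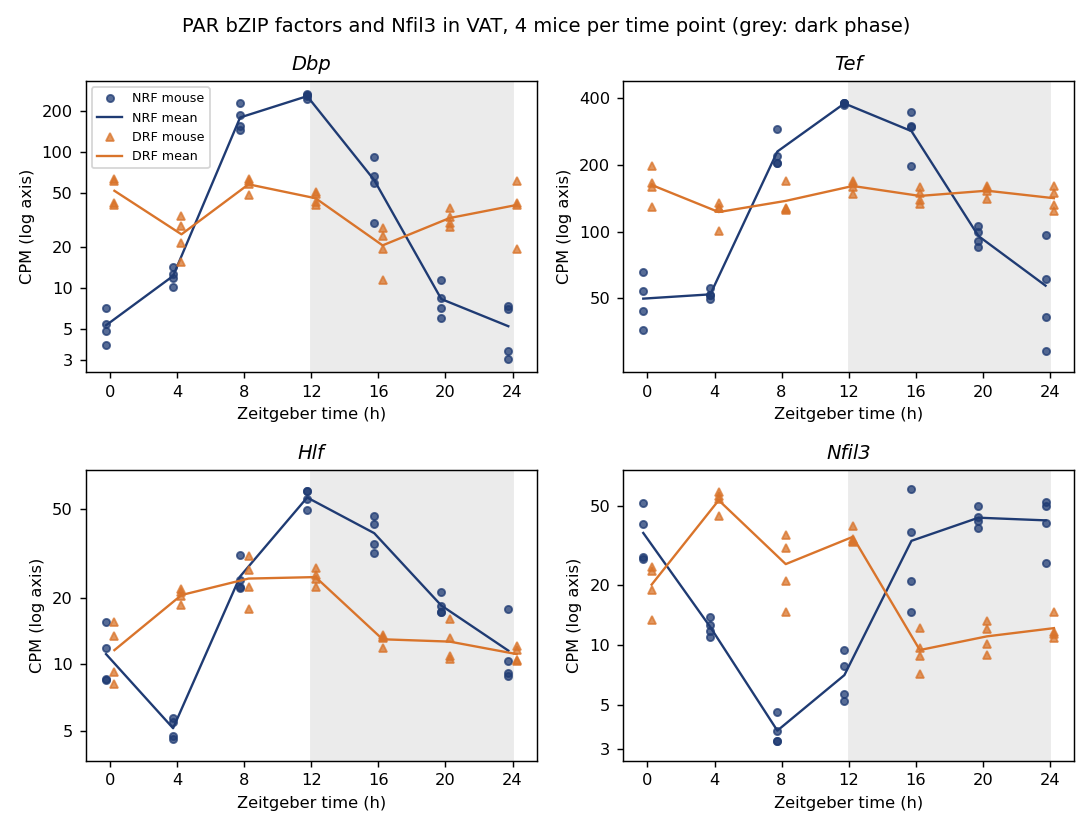
CPM on a log axis against zeitgeber time in hours for Dbp, Tef, Hlf and Nfil3, with 1 point per mouse and a line through the mean of 4 mice for NRF (circles) and DRF (triangles); the dark phase is grey. The NRF lines of Dbp, Tef and Hlf peak at ZT12 while Nfil3 is low, and under DRF the Tef line stays between 122.7 and 162.6 CPM.

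Dbp, the PAR bZIP factor best known as a clock output, showed the largest oscillation of the 4 genes and lost it under DRF. At the start of the light phase under NRF, ZT0, the 4 mice had 7.20, 5.50, 4.83 and 3.85 CPM. At ZT8 they had 155.5, 186.0, 228.5 and 143.3 CPM, and at ZT12 263.8, 260.2, 254.9 and 243.2 CPM. Every NRF mouse at ZT8 and ZT12 was thus above every other NRF mouse, with ZT16 next at 30.2 to 91.9 CPM and ZT20 back at 6.09 to 11.5 CPM. The highest and the lowest time point differed 48.6-fold in mean CPM, and the fitted cosine had an amplitude of 2.86 ± 0.14 (SE, 28 mice) log2 units with a peak at ZT11.2 (rhythm adjusted p = 2.71e-10).

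Under DRF the same gene stayed between 11.5 and 63.5 CPM in all 28 mice. Mice at ZT0 had 41.0, 60.6, 63.4 and 42.0 CPM, and mice at ZT12 had 40.4, 48.7, 50.5 and 43.0 CPM, so that the values at opposite ends of the light phase overlapped. The 24-h amplitude was 0.31 ± 0.16 (SE), with a 95% interval from -0.01 to 0.63, and no 24-h rhythm was detected (adjusted p = 1.0). The amplitude was therefore 10.8% of that under NRF, a difference of -2.55 ± 0.21 log2 units (SE; adjusted p = 2.04e-12 by a Wald test run on all genes). Only 1.44% of genes were called for an amplitude difference, and 1.1% for a lower amplitude under DRF.

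The Dbp values under DRF were not flat, however, but had 2 lows and 2 highs in the day. At ZT4 the mice had 28.5, 21.6, 33.6 and 15.6 CPM, and at ZT16 they had 11.5, 19.3, 24.1 and 27.5 CPM. Between these lows, at ZT8, all 4 mice were higher, at 48.1, 57.8, 63.5 and 61.5 CPM. A 12-h component fitted beside the 24-h one had an amplitude of 0.67 log2 units with peaks at ZT10.1 and ZT22.1 (limma F test, adjusted p = 0.00218), and such a component was called for 1.2% of genes under DRF. The call was lost without replicate 2 (adjusted p = 0.0893) and on linear CPM (0.0728), and the range over all alternatives was 0.000865 to 0.0893. Under NRF the 12-h component of Dbp had an amplitude of 0.36 log2 units with peaks at ZT10.1 and ZT22.1 and was not called (adjusted p = 0.622, unadjusted p = 0.0103). On linear CPM, where the DRF component was not called, the NRF component was (adjusted p = 6.22e-13), so which regimen has a called 12-h component of Dbp depends on the scale, and the difference between the regimens in this component was not tested. Tef under NRF was likewise called on linear CPM (adjusted p = 0.0105) and not on the log2 scale (0.953, unadjusted p = 0.101). For Tef, Hlf and Nfil3 under DRF no 12-h component was called (adjusted p of 0.585, 0.905 and 0.494; unadjusted p of 0.225, 0.755 and 0.143).

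Tef, the PAR bZIP factor with the highest read counts here, peaked later than Dbp under NRF and was the flattest of the 4 under DRF. At ZT0 the NRF mice had 65.5, 54.2, 36.1 and 43.9 CPM and at ZT4 51.8, 49.5, 55.7 and 51.7 CPM. At ZT12 they had 383.1, 381.0, 379.8 and 373.6 CPM, a spread of only a few CPM, and at ZT16 345.6, 299.2, 296.5 and 197.2 CPM. The fitted amplitude was 1.57 ± 0.08 log2 units (SE) with a peak at ZT12.8 (rhythm adjusted p = 3.88e-08).

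Under DRF all 28 mice had between 100.3 and 197.9 CPM of Tef, and the means of the 7 time points ranged over 1.33-fold, against 7.60-fold under NRF. The lowest time point, ZT4, had 128.5, 127.4, 134.7 and 100.3 CPM, and the highest, ZT0, had 158.7, 197.9, 165.1 and 128.8 CPM, so that even these overlapped. The amplitude was 0.12 ± 0.09 log2 units (SE; 95% interval -0.05 to 0.29), which is 7.60% of that under NRF (difference -1.45 ± 0.11, adjusted p = 1.73e-13), and no 24-h rhythm was detected (adjusted p = 1.0). Peak times of Dbp and Tef under DRF are not read, since neither rhythm was detected.

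Hlf, the third PAR bZIP factor, kept a rhythm under DRF with a smaller amplitude and an earlier peak. The NRF mice had 4.74, 5.74, 5.50 and 4.58 CPM at ZT4, the lowest time point by mean. At ZT12, the highest, they had 60.2, 60.4, 49.8 and 55.8 CPM, with no overlap between these extremes. From its lowest to its highest time point the level rose over 8 h and then fell over 16 h. The fit gave an amplitude of 1.34 ± 0.10 log2 units (SE) with a peak at ZT14.0 (rhythm adjusted p = 2.83e-06). A 12-h component with an amplitude of 0.46 log2 units was called beside it (limma F test, adjusted p = 0.00437), which under NRF was called for 0.027% of genes. That call was lost without replicate 1 (adjusted p = 0.168) and without replicate 4 (0.143), and its range over all alternatives was 3.99e-06 to 0.168.

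In DRF mice Hlf was highest from ZT4 to ZT12. The 4 mice had 18.6, 21.9, 21.3 and 20.3 CPM at ZT4, 22.4, 25.2, 24.2 and 27.1 CPM at ZT12 and 13.2, 11.8, 13.6 and 13.2 CPM at ZT16, with no overlap between ZT16 and either of the other time points. The amplitude was 0.62 ± 0.10 log2 units (SE), 45.9% of that under NRF (difference -0.73 ± 0.14, adjusted p = 0.00121), and the rhythm was detected (adjusted p = 0.000271). The peak was at ZT9.0, 4.96 ± 0.68 h (SE) earlier than under NRF (95% interval 3.61 to 6.32 h, adjusted p = 1.6e-08 by the Wald test). A phase shift of some size was called for 96.0% of the 2107 dual-oscillating genes, the 8.12% of all genes with a rhythm under both regimens. By its point estimate the shift of Hlf lay between the classes usually named phase-locked, up to 4 h, and phase-inverted, 8 h or more, into which 6.74% and 78.6% of the dual-oscillating genes fell, and its interval reaches below 4 h.

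Nfil3, the repressor, had a rhythm under both regimens and was phase-inverted. Under NRF its lowest values were at ZT8, with 3.68, 3.28, 3.27 and 4.59 CPM, and high values were reached at ZT20, with 49.6, 44.1, 41.8 and 38.5 CPM. The amplitude was 1.70 ± 0.14 log2 units (SE) with a peak at ZT20.8 (rhythm adjusted p = 1.27e-07), which is 9.59 h after the peak of Dbp and 6.80 h after that of Hlf. At ZT16 the NRF mice had 20.9, 37.0, 14.6 and 60.6 CPM, the widest spread of any group of this gene. In these same mice Dbp was 58.9, 66.8, 91.9 and 30.2 CPM, so that the mouse with the lowest Dbp had the highest Nfil3 and the mouse with the highest Dbp the lowest Nfil3. Other groups did not share this order. At NRF ZT12 the mouse with the most Dbp, 263.8 CPM, also had the most Nfil3, 9.45 CPM. The mouse with the least Dbp there, 243.2 CPM, had the least Nfil3, 5.22 CPM. The order of mice within groups was not tested.

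DRF mice had 55.9, 44.4, 54.3 and 58.3 CPM of Nfil3 at ZT4, its highest time point by mean. At ZT16, its lowest, they had 12.1, 9.60, 8.80 and 7.11 CPM. These extremes did not overlap, which their choice makes likely. The rhythm was detected (adjusted p = 0.0045) with an amplitude of 1.02 ± 0.15 log2 units (SE) and a peak at ZT6.8. The peak was 10.01 ± 0.58 h (SE) away from that under NRF (95% interval 8.84 to 11.2 h, adjusted p = 2.7e-20). The amplitude was 60.0% of that under NRF, a difference of -0.68 ± 0.20 log2 units. It did not pass the threshold by the Wald test (adjusted p = 0.0797, unadjusted p = 0.00164), so neither a loss nor a preserved amplitude was shown for this gene. The DRF rhythm was no longer called without replicate 2 (adjusted p = 0.0563), 3 (0.151) or 4 (0.18), although the shift stayed between 9.50 and 10.2 h in every alternative.

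**Figure D2:**
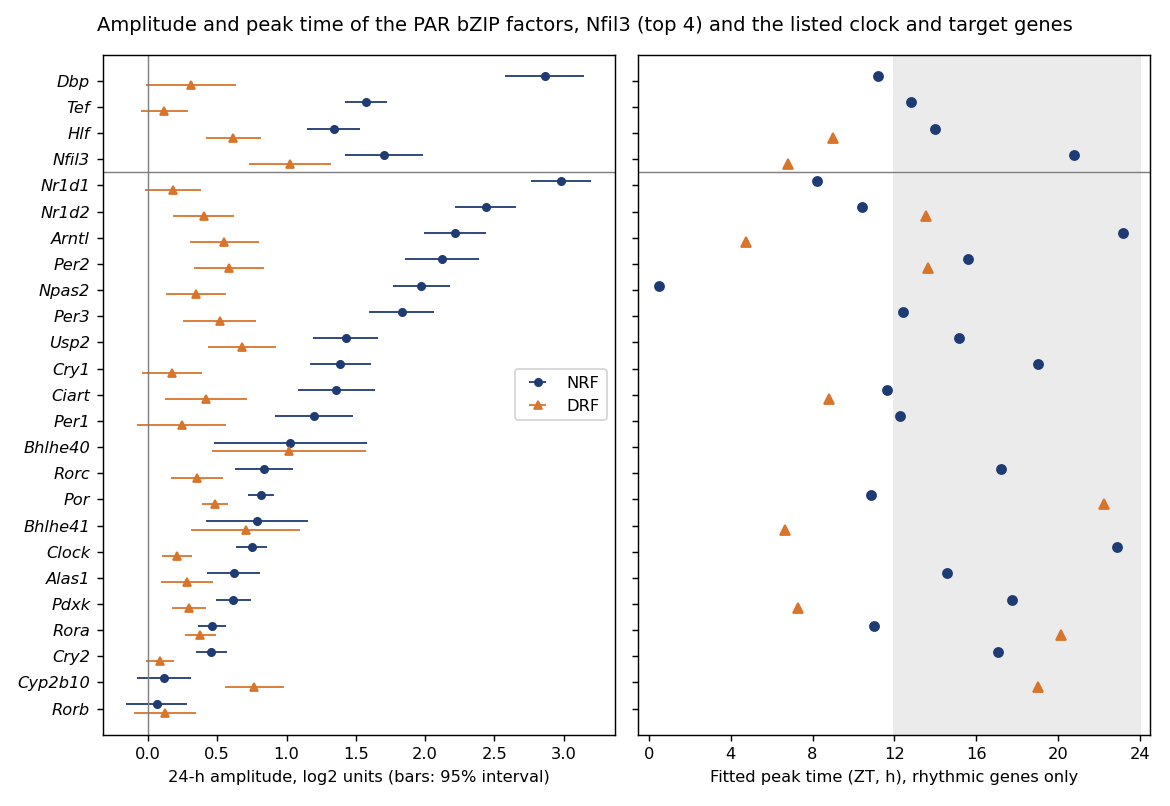
Fitted 24-h amplitude in log2 units with its 95% interval (left) and fitted peak time in ZT hours for rhythmic genes (right), under NRF (circles) and DRF (triangles), for the 4 members above the line and the listed clock and target genes under it, sorted by their NRF amplitude. Dbp and Tef have DRF amplitudes of 0.31 and 0.12 with intervals that reach 0. Nfil3 has 1.02 under DRF against 1.70 under NRF, and its peak moves from ZT20.8 to ZT6.8.

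Mean levels over the day moved little on the log2 scale, and what they show depends on the scale. The mesor, the mean level of the fitted cosine, differed for Dbp by 0.03 ± 0.15 log2 units between DRF and NRF (SE; 95% interval -0.27 to 0.32, adjusted p = 0.925 in limma) and for Tef by 0.09 ± 0.08 (95% interval -0.07 to 0.24, adjusted p = 0.498). On linear CPM, where high values weigh more, both were lower under DRF, Dbp by -52.0 CPM (adjusted p = 1.17e-05) and Tef by -40.6 CPM (adjusted p = 0.000311). The mean over all 28 mice was 75.3 CPM of Dbp under NRF and 39.1 CPM under DRF, and 164.1 and 146.3 CPM of Tef. These are plain means and not fitted mesors, and both ZT0 and ZT24, the same clock time, count in them. A mean level difference was called for 21.7% of all genes on the log2 scale. The summed level of 4 macrophage markers was 256.3 to 468.3 CPM under NRF (median 346.4) and 210.5 to 418.5 CPM under DRF (median 280.6), and that of 3 red cell markers had medians of 240.3 and 393.9 CPM. The medians under NRF and DRF were 379.5 and 297.4 CPM for 4 mesothelium markers, 21180 and 24250 CPM for 6 adipocyte markers, 82.5 and 104.8 CPM for skeletal muscle, 23.3 and 34.1 CPM for liver, 28.6 and 24.2 CPM for epithelium and 6.27 and 6.02 CPM for lymphocytes. The ranges of the regimens overlapped for all 8 lists, and the part of these cell types in the differences was not tested.

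Hlf was lower under DRF by -0.30 ± 0.10 log2 units (SE; adjusted p = 0.0181) and by -9.07 CPM on the linear scale (adjusted p = 1e-05). The log2 call was lost without the ZT24 libraries (adjusted p = 0.102) and without replicate 1, 2 or 3 (0.109, 0.106 and 0.0567). Nfil3 differed by 0.29 ± 0.14 log2 units (SE; adjusted p = 0.125), and passed the threshold without the 2 libraries with epithelial markers (0.34, adjusted p = 0.0344) and without the ZT24 libraries (0.40, adjusted p = 0.043). On linear CPM its difference was 0.73 CPM (adjusted p = 0.9).

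At single time points, 25 of the 28 comparisons of DRF with NRF mice passed the threshold in limma, and in the same number the 4 DRF and 4 NRF mice did not overlap. The percentage of all genes called was 10.5 at ZT0, 19.5 at ZT4, 16.5 at ZT8, 16.1 at ZT12, 9.97 at ZT16, 13.1 at ZT20 and 11.3 at ZT24, and the percentage of all genes whose groups did not overlap was 9.89, 24.4, 11.8, 21.7, 18.9, 19.7 and 15.5 in the same order. Folds between the regimens, here and below, are of CPM + 1, taken from the log2 differences, and understate changes at low levels. Dbp was called at all 7 time points and changed sign between them. It was 8.30-fold higher in DRF mice at ZT0 (means of 51.7 and 5.35 CPM, log2 difference 3.05 ± 0.27 SE, adjusted p = 9.74e-11) and 5.52-fold lower at ZT12 (-2.47 ± 0.27, adjusted p = 9.04e-09). The smallest difference, at ZT4 (0.91, adjusted p = 0.0141), was lost without replicate 1 (0.75, adjusted p = 0.0652), without replicate 3 (0.74, adjusted p = 0.149) and on linear CPM (adjusted p = 0.461), and the call at ZT20 on linear CPM (adjusted p = 0.106).

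Tef was also called at all 7 time points, higher in DRF mice at ZT20, ZT24, ZT0 and ZT4 and lower at ZT8, ZT12 and ZT16. It was 3.26-fold higher at ZT0 (log2 difference 1.70 ± 0.19 SE, adjusted p = 3.76e-08) and 2.35-fold lower at ZT12 (-1.23 ± 0.19, adjusted p = 5.93e-06). The Tef call at ZT20 was lost without replicate 2 (adjusted p = 0.0618) or 3 (0.0573), and that at ZT8 when the 8 libraries of that time were fitted alone (0.0511). Hlf was called at 4 time points. It was 3.51-fold higher in DRF mice at ZT4 (1.81 ± 0.17, adjusted p = 5.42e-10) and 2.84-fold lower at ZT16 (-1.51 ± 0.17, adjusted p = 6.02e-08), while at ZT0, ZT8 and ZT24 the differences were 0.05, -0.04 and 0.00 with adjusted p of 0.902, 0.907 and 1.0. The call for Hlf at ZT20 (-0.52, adjusted p = 0.0359) was lost without replicate 1, 2 or 3 (adjusted p of 0.144, 0.0959 and 0.178), on the deposited values (0.0783) and on linear CPM (0.143).

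Nfil3 differed in the opposite direction from Dbp at 5 of the 7 time points, with both genes higher in DRF mice at ZT4 and both lower at ZT16. DRF mice had more Nfil3 at ZT4, ZT8 and ZT12, with the largest difference at ZT8 (5.36-fold, log2 difference 2.42 ± 0.26 SE, adjusted p = 9.72e-09). They had less at ZT16, ZT20, ZT24 and ZT0, with 3.72-fold at ZT20 (-1.90 ± 0.26, adjusted p = 1.43e-06). The call at ZT0 (-0.82, adjusted p = 0.0349) was lost without replicate 1, 2 or 3 (adjusted p of 0.0742, 0.149 and 0.191), on linear CPM (0.0525) and with its 8 libraries fitted alone (0.175).

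**Figure D3:**
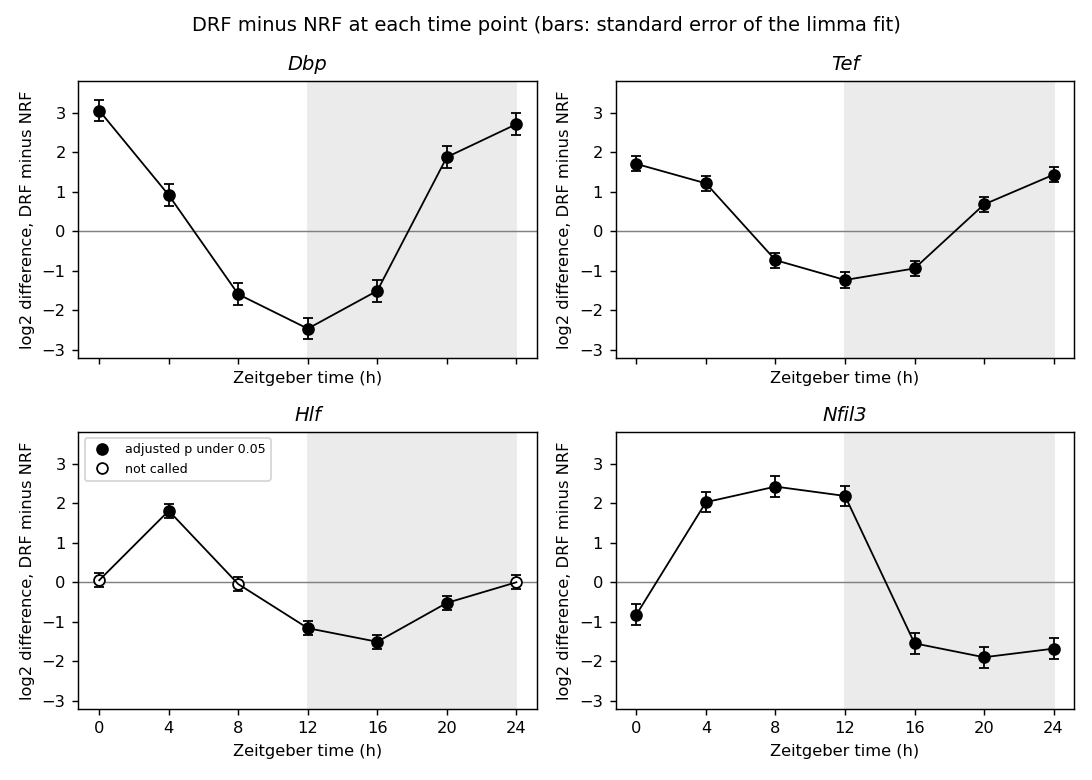
Difference in log2(CPM + 1), DRF minus NRF, with its standard error from limma (4 against 4 mice, variance shared over 14 groups), against zeitgeber time in hours; filled points have an adjusted p under 0.05. Dbp runs from 3.05 at ZT0 to -2.47 at ZT12, and Nfil3 from 2.42 at ZT8 to -1.90 at ZT20.

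ZT24 and ZT0 gave a check of repeatability in separate mice. Neither regimen showed a difference between these time points for any of the 4 genes in limma, at 0 of 8 comparisons called, with 1 of 8 at an unadjusted p under 0.05 (Nfil3 under DRF, -0.66, unadjusted p = 0.0154). Over all genes, 0.154% were called under NRF and 0.0501% under DRF.

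The regimens place feeding 12 h apart, so DRF mice were also compared with NRF mice collected 12 h later, at the same hour from the start of food access. Of 6 such comparisons, 3 were called for Nfil3. DRF mice at ZT12 and NRF mice at ZT24 differed by -0.22 ± 0.26 log2 units (SE; adjusted p = 0.799), DRF ZT16 and NRF ZT4 by -0.37 ± 0.26 (adjusted p = 0.423), and DRF ZT8 and NRF ZT20 by -0.82 ± 0.26 (adjusted p = 0.113). The mice of the last pair did not overlap, for which no share over all genes was taken. In the other comparisons DRF mice had more Nfil3, by 0.85 at ZT4 against ZT16 (adjusted p = 0.0241), by 1.35 at ZT20 against ZT8 (adjusted p = 0.000667) and by 1.39 at ZT0 against ZT12 (adjusted p = 0.000759). All 3 of these calls were lost without replicate 2, and the first also without replicate 1 or 3, with adjusted p of 0.0553 to 0.299. On linear CPM those at ZT20 against ZT8 and ZT0 against ZT12 were lost too (adjusted p of 0.499 and 0.212).

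Dbp, Tef and Hlf each had 5 of 6 comparisons called. For Dbp the largest was DRF ZT12 against NRF ZT24, 7.84-fold higher (log2 difference 2.97 ± 0.27 SE, adjusted p = 4.86e-10). Hlf was 4.69-fold lower at DRF ZT0 than at NRF ZT12 (-2.23 ± 0.17, adjusted p = 1.08e-12). For Tef, DRF ZT20 against NRF ZT8 (-0.57, adjusted p = 0.0478) was lost without replicate 1, 2 or 3 (adjusted p of 0.144, 0.165 and 0.241) and on the deposited values (0.147). Of all genes, 12.5% were called for ZT4 against ZT16, 1.05% for ZT8 against ZT20, 1.55% for ZT12 against ZT24, 10.4% for ZT16 against ZT4, 9.7% for ZT20 against ZT8 and 3.37% for ZT0 against ZT12.

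**Figure D4:**
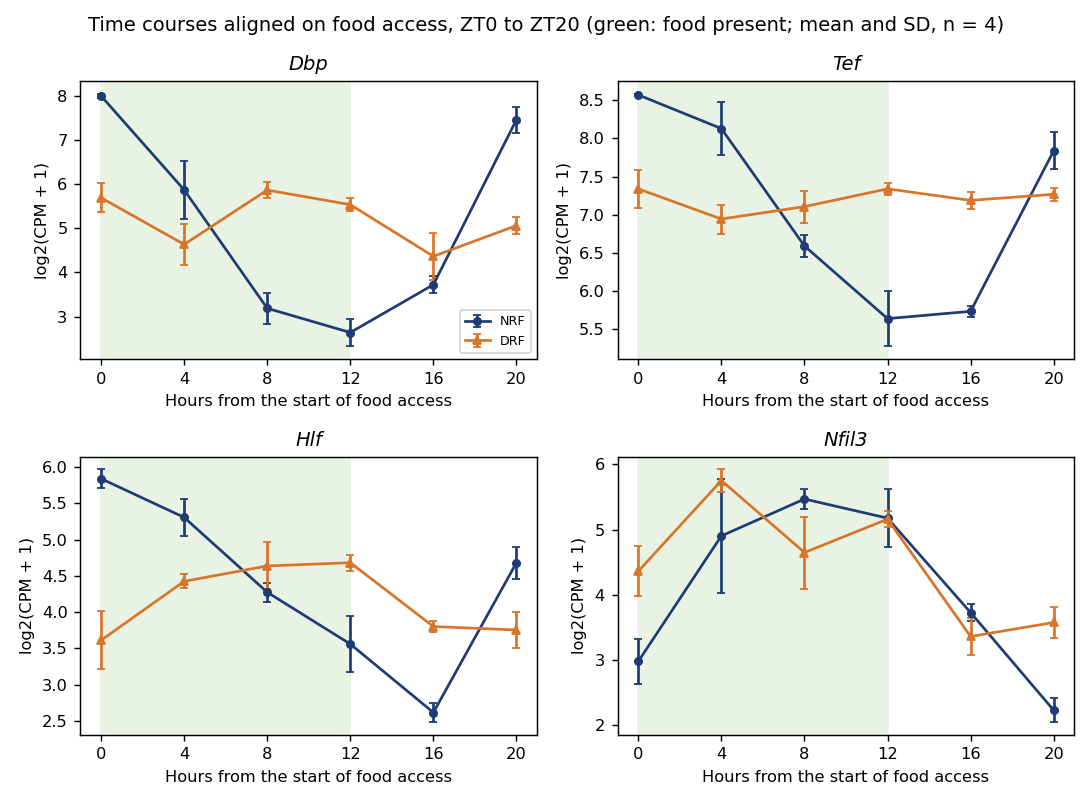
Mean and SD of log2(CPM + 1) over 4 mice against hours from the start of food access, ZT0 for DRF (triangles) and ZT12 for NRF (circles); food is present in the green span. The lines of all 4 genes cross, and the ZT24 groups are not drawn. For Nfil3 DRF minus NRF is 1.39, 0.85 and 1.35 at 0, 4 and 20 h and -0.82 and -0.37 at 8 and 16 h. At 12 h the Nfil3 means are 5.16 for DRF ZT12 and 5.175 for NRF ZT0.

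The balance of activators to repressor was described per length as the sum of Dbp, Tef and Hlf divided by Nfil3, each in CPM per kb. Under NRF the ratio ran from 0.30 to 73.3 over the 28 mice, a span of 248-fold. It was below 1 in all 4 mice at ZT20, ZT24 and ZT0, and between 34.1 and 73.3 at ZT8. Under DRF the ratio ran from 0.73 to 8.22, a span of 11.3-fold, with its lowest values at ZT4 (0.73 to 1.22) and values of 4.14 to 8.22 at ZT16. The DRF mice therefore had their lowest ratio at ZT4 and the NRF mice their lowest near ZT24 and ZT0. The makeup of the activator sum also changed with time. At ZT8 under NRF, Dbp made up 64.2% ± 2.6 of it (SD, n = 4), and at ZT20 15.6% ± 3.1, when Tef made up 68.7% ± 2.5. Under DRF the share of Dbp ranged in its means from 24.9% at ZT16 to 47.8% at ZT8. These ratios are of transcripts, and no test was made on them.

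**Figure D5:**
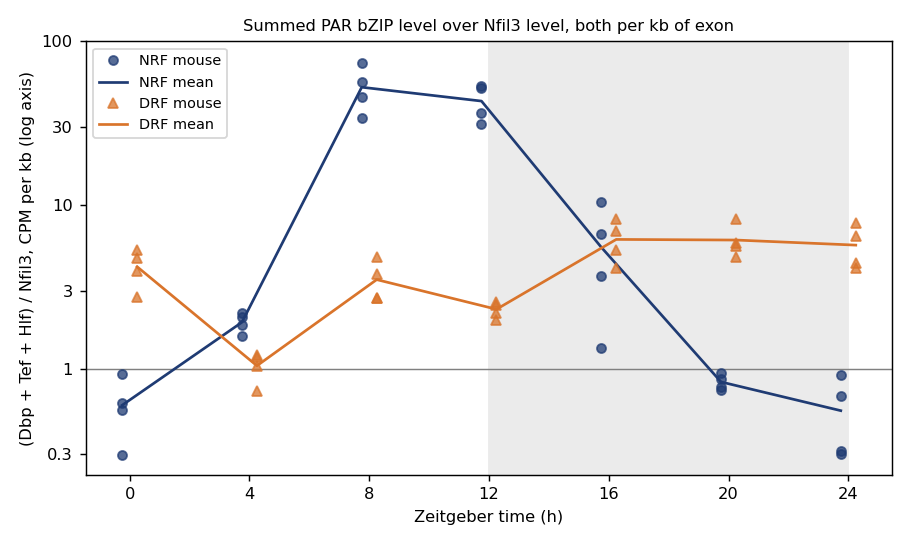
Sum of Dbp, Tef and Hlf divided by Nfil3, all in CPM per kb of exon, on a log axis against zeitgeber time in hours, with 1 point per mouse and a line through the mean of 4 mice; the grey line marks a ratio of 1. NRF mice reach 34.1 to 73.3 at ZT8, while DRF mice stay between 0.73 and 8.22.

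Genes that control the members were compared with them. Of 16 clock genes that act through E-boxes and ROREs, all 16 were measured. A 24-h rhythm was called for 13 under NRF and 6 under DRF, and the rhythm differed between regimens for 15. Over all genes these shares were 25.0%, 13.4% and 36.0%. The amplitude was lower under DRF for 11, higher for 0 and not called for 5 (Wald test, with 285 lower, 1.1%, and 88 higher, 0.339%, among all 25937 genes). The median amplitude of the 16 was 1.28 log2 units under NRF and 0.37 under DRF, beside medians of 0.10 and 0.09 over all genes. Nr1d1, which encodes the repressor REV-ERBα, had a mean of 254.4 ± 29.0 CPM at ZT8 and 4.48 ± 0.30 CPM at ZT20 under NRF (SD, n = 4). Its amplitude was 2.98 log2 units under NRF and 0.18 under DRF (adjusted p of the difference 5.35e-20). Arntl, which encodes BMAL1, had 0.69 ± 0.11 CPM at ZT12 under NRF, when Dbp, Tef and Hlf were highest, and its amplitude was 2.21 under NRF and 0.55 under DRF (adjusted p = 5.8e-10). Nr1d2, which encodes REV-ERBβ, had amplitudes of 2.44 and 0.40 (adjusted p = 7.07e-14).

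Genes known to carry D-boxes or to be outputs of the members were the other list. Of 15, 13 were measured, 11 had a rhythm under NRF and 6 under DRF, and the rhythm differed between regimens for 12. The same 3 calls were made for 25.0%, 13.4% and 36.0% of all genes. The amplitude was lower for 9 (1.1% of all genes), higher for 1 (0.339%) and not called for 3. The median amplitude was 1.20 log2 units under NRF and 0.38 under DRF. Por, which encodes the electron donor of microsomal cytochrome P450 enzymes, kept its rhythm under both regimens (adjusted p of 2.13e-08 and 0.00134). It peaked at ZT10.9 under NRF, close to Dbp, and at ZT22.2 under DRF, a shift of 11.4 h (adjusted p = 2.95e-25). Its amplitude was lower under DRF, at 59.6% of that under NRF (adjusted p = 0.00272). A fitted shift of 8 h or more was found for 78.6% of all dual-oscillating genes, and for 1 of the 5 in the list of clock genes. Of the 5 genes of the present list with a rhythm under both regimens, 3 had such a shift (Por, Pdxk and Rora). The fitted shift was 1.95 h for Per2 (adjusted p = 0.0821) and 3.14 h for Nr1d2 (adjusted p = 0.0223). The gene with a higher amplitude was Cyp2b10, a cytochrome P450 gene named here after its values were seen, which was near 0 under NRF (time point means of 0.06 to 0.49 CPM) and reached means of 2.68 and 2.79 CPM at ZT16 and ZT20 under DRF. Both lists share 8 genes with each other, and both were chosen with earlier results of these data known.

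The genes most like each member were found by Pearson correlation of log2(CPM + 1) over the 56 libraries among 14105 genes with a mean of at least 1 on that scale. These values are a description, since the libraries share time points and regimens. For Dbp they were Nr1d2 (r = 0.90), Tef (0.89), Per3 (0.88), Plcg1 (0.83) and Ciart (0.81). Tef was most like Per3 (0.94), Dbp (0.89), Klf9 (0.84), Gm45819 (0.81) and Per1 (0.80). Hlf was most like Usp2 (0.85), Herpud1 (0.81), Angptl2 (0.81), Tspan4 (0.80) and Tef (0.79). The neighbours of Nfil3 held no other member and no gene of the lists, and were Osgin1 (0.91), Mid1ip1 (0.89), Leo1 (0.89), Cdkn2b (0.88) and Angptl8 (0.88). Those 5 genes had fitted peaks between ZT20.0 and ZT21.9 under NRF and between ZT7.2 and ZT7.9 under DRF, beside ZT20.8 and ZT6.8 for Nfil3. Between the members, r was -0.60 for Dbp with Nfil3, -0.44 for Tef with Nfil3 and -0.05 for Hlf with Nfil3.

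Overlapping genes bear on Dbp and Tef, because the library kit is not stated to keep the strand. Dbp shares 539 of its exonic bases with Sphk2 on the other strand, which encodes a sphingosine kinase. Sphk2 had 394 to 1318 reads per library and peaked under NRF at ZT21.8, when Dbp was low, with an amplitude of 0.55 log2 units. Reads in the shared bases cannot be told apart. The antisense gene Gm17597 shares 193 bases with Tef and had at most 24 reads in any library. Hlf and Nfil3 overlap no other exon of the annotation.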

How the data were processed

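RNA of VAT from 56 mice was sequenced by the authors after poly(A) selection, and the strand setting of the counting is not given in the sources used here. The submitters' processing notes name HISAT2 2.0.5, featureCounts 1.5.0-p3 and mm10. The table deposited by the authors names its values TPM. By its values the deposited number is a score, log2(CPM + 1) divided by exon length and rescaled per library, and whole reads were recovered from it: 99.9954% of 1424915 values of up to 10000 reads lay within 0.02 of a whole number. Recovered totals were 31.2 to 41.1 M reads per library (median 35.6 M). CPM were taken per effective library size, which was 31.8 to 47.3 M, and not per these totals. Exon lengths came from GENCODE or, for 880 genes, from the values themselves, and 2 genes (Pcx, Scd1) could not be resolved, which left 25937.

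Each regimen was tested for 24-h rhythms on the deposited values by JTK_CYCLE and by Lomb-Scargle, with both p-values joined by Fisher's method as MetaCycle does, in Python 3.11.15 (numpy 2.4.6, pandas 2.3.3, scipy 1.17.1). Differences were fitted on log2(CPM + 1) with a pseudocount of 1 in limma 3.58.1 (R 4.3.3) with an intensity trend, and amplitude and phase with a cosine per regimen and Wald tests after CircaCompare. All p-values were adjusted by Benjamini-Hochberg over all genes, with a threshold of 0.05. Tests recovered most of the changes made in simulated log2 values, which were large and placed only in genes off the floor with a small spread. Smaller changes were not simulated. The phase test called flat genes in the simulated data, so phase shifts are read only for genes rhythmic under both regimens. The plan assumed that the table held TPM, and log2(CPM + 1) took its place. The mice were group housed and the labels name no cages, and p-values measure the spread between these samples. The lowest chi-square per gene between libraries of one group was 15.3, so none is a repeated library.

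The members and lists were chosen with earlier results of these data known. Named beside the members are, for each list, the 3 genes with the smallest adjusted p for the rhythm difference plus Nr1d1, Nr1d2 and Arntl, and the 5 genes most like each member; Cyp2b10, Pdxk, Rora and Per2 were named outside this rule, after their values were seen. Alternatives were a filter on reads, another scaling, another pseudocount, deposited or linear values, the replicate number as a block, other tests and leaving out libraries. The one without NRF ZT24 replicate 4 was chosen after seeing the data.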

Additional observations from a re-analysis of the deposited data

Results flagged for a closer look

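Each of the 4 genes was examined in each of the 14 groups of 4 mice, which gives 56 sets of values from the same mice. In 3 of the 56 sets, 1 mouse lay far from the other 3 by Dixon's criterion, where chance gives about 1 in 20. Tef was 169.9 CPM in DRF ZT8 replicate 3 against 125.5 to 128.6 CPM in the others, and 292.3 CPM in NRF ZT8 replicate 3 against 204.3 to 218.9 CPM. Nfil3 was 39.4 CPM in DRF ZT12 replicate 4 against 33.0 to 33.8 CPM. The effect of time differed between NRF and DRF by the limma interaction test for all 4 genes, with adjusted p of 2.71e-16 for Dbp, 1.77e-16 for Tef, 1.24e-10 for Hlf and 3.53e-15 for Nfil3.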

How the results depend on the processing

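For the 4 genes, the rhythm under NRF, the rhythm and amplitude differences and the phase shifts of Hlf and Nfil3 kept their direction and their side of the threshold under every alternative. The mean level differences of Dbp (-52.0 CPM) and Tef (-40.6 CPM) changed sign on linear CPM, and that of Dbp, which was not called on the log2 scale, also did without replicate 4 (-0.09, range without 1 replicate number -0.09 to 0.16). The mean level difference of Hlf fell below the threshold without the ZT24 libraries (-0.23), and over the fits without 1 replicate number it ranged from -0.38 to -0.24. That of Nfil3 passed the threshold without the ZT24 libraries (0.40) and without DRF ZT8 replicate 1 and DRF ZT0 replicate 4, the 2 libraries with epithelial markers (0.34), and was 0.24 at its lowest, without replicate 3. The adjusted p of the Nfil3 rhythm under DRF ranged from 0.0296 to 0.18 without 1 replicate number and was 0.00104 without those 2 libraries. The cause of these changes was not tested.

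Counts over all genes moved more. Without 1 replicate number, genes with a 24-h rhythm ranged from 3785 to 5090 under NRF and from 1487 to 2221 under DRF, 12-h components from 3 to 13 under NRF and from 31 to 83 under DRF, and amplitude differences from 80 to 264. Genes rhythmic under DRF were 2280 without the ZT24 libraries and 6929 by the limma F test of the cosine, against 3468 (6496 under NRF). Without the 2 libraries with epithelial markers, 4536 genes were rhythmic and 335 had a 12-h component under DRF. The 12-h count under NRF, 7, became 12 with a pseudocount of 0.1, 43 on linear CPM and 33 without the 2 libraries with epithelial markers, and without these the amplitude differences rose from 373 to 570. Of 800 other values for single time points and 12-h components, 766 kept their side of the threshold, 32 lost it and 2 gained it. No called difference changed sign, but those of Hlf at ZT0, ZT8 and ZT24, none of them called, did: over all alternatives on the log2, deposited and linear scales they ran from -0.128 to 0.472, from -0.554 to 0.090 and from -0.416 to 0.192. With the replicate block, none of these calls changed. The replicate numbers name different mice, and deviations of same-numbered libraries from their group means correlated at a median of 0.0154 over 28 pairs (range -0.256 to 0.307), with 13 of 56 libraries correlating best with their own number, so the numbers were not taken as pairs. With 4 mice per group and time points 4 h apart, small amplitudes and short peaks are beyond the resolution of these data.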
